A study of Mus musculus with 6 samples.

Results

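The mitosis genes described here are 57 genes of the spindle, the kinetochore, the condensin complex, cytokinesis and the kinases and cyclins that drive division. They were taken from a fixed list by symbol, and 56 of them were read out of the 18193 genes with a probe set annotated to 1 gene. Ccnb1, the gene of cyclin B1, had no such probe set in the annotation used here and is named only. RNA came from AD-MSCs, mesenchymal stem cells grown from the inguinal fat of adult C57BL/6 mice, which had been sorted by flow cytometry into CD73+ and CD73- AD-MSCs and cultured to the fifth passage after the sort in low-glucose DMEM with serum. CD73, encoded by Nt5e, is a surface enzyme that makes adenosine from AMP. Both subgroups shared the strain, tissue, medium and passage and carried no genetic change. The labels do not give the number of mice or cultures behind the 3 CD73+ and the 3 CD73- arrays, so a p-value here speaks for the scatter among these 6 arrays and no further, and that scatter may be technical. Each value is a deposited log2 value on an Affymetrix mouse array, where a difference of 1 is a change of 2-fold. Differences are CD73+ minus CD73-, and a gene was called where the limma adjusted p over all 45037 probe sets was under 0.05.

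Cells enter mitosis when Cdk1 bound to cyclin B is activated by Cdc25 phosphatases. Spindle microtubules, sorted by kinesins, then attach to kinetochores, and the spindle checkpoint holds back the anaphase-promoting complex until every chromosome is attached. The complex then marks securin and cyclin B for destruction, separase opens cohesin, and the cell divides at the midzone. Most of these genes are transcribed late in the cycle, in G2 and M, through promoters that carry CCAAT boxes, bound by NF-Y, and a cell cycle homology region (CHR element, TTTGAA), where the MuvB complex binds with DREAM in resting cells and with B-Myb and FoxM1 in dividing cells. Their RNA level in a culture is therefore widely used as a sign of dividing cells, but in RNA of a whole culture a larger share of dividing cells and more transcript per dividing cell cannot be told apart.

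Promoter sequence of the genes was looked up in RefSeq (GRCm38.p6), from 250 bases before to 50 after the annotated start, where 47 of the 57 genes matched. The 4 genes with the largest differences among those with a promoter there are shown, so that the motifs stand beside the genes that moved most. The 120 bases before the start are given 5′ to 3′ on the strand of the gene, with CCAAT (or ATTGG on the other strand) and TTTGAA (or TTCAAA) in capitals. Ccnb2 lies on the minus strand at chr9:70421555-70421674, Cdca3 on the plus strand at chr6:124830056-124830175, Kif11 on the plus strand at chr19:37376262-37376381 and Plk1 on the plus strand at chr7:122159315-122159434.
Ccnb2: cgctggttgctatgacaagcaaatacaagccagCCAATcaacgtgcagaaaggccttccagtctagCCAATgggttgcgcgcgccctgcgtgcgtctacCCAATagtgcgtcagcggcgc
Cdca3: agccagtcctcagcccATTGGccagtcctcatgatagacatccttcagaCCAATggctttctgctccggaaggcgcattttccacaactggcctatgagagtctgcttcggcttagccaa
Kif11: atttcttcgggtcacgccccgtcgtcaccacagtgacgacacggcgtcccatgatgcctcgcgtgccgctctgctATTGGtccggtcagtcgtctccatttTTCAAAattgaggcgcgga
Plk1: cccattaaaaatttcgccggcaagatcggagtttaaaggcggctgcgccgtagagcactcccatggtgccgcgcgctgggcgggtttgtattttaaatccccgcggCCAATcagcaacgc
Within these 120 bases Ccnb2 held 3 CCAAT boxes, Cdca3 held 2, and Kif11 and Plk1 held 1 each.

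The CHR element lay within 50 bases of the start in most promoters. The 20 bases around it are printed for the 10 called genes with the largest differences among those that held it there. Genes without it there, such as Nuf2 and Kif2c, were passed over. The position of the first capital base is counted from the annotated start, negative before it.
Ccnb2, 5: cgcggtaTTTGAAtcgcgga
Cdca3, 31: agggaagTTTGAAactccgg
Kif11, -19: tccatttTTCAAAattgagg
Plk1, 31: cgccgcgTTTGAAttcgggg
Cenpa, 17: gtgatttTTTGAActgctgg
Kif23, 3: tggcctgTTTGAAatgcgcc
Cep55, 25: cgcgggaTTCAAActcccgg
Ube2c, -29: gttgcaaTTCAAAcgcgggc
Kifc1, 2: gttgaaaTTCAAAagtggcg
Hmmr, 9: aggtaaaTTTGAAttcaggc
TTTGAA on either strand was found in the window of 35 of the 47 genes (74.5%), against 15.7% of the 14453 array genes with a promoter in the table. Within 50 bases of the start it was found in 32 genes (68.1%), against 4.1% of array genes. CCAAT was found in 36 genes (76.6%), against 42.0%, and both motifs stood in 30 genes (63.8%), against 7.35%. Promoters of DNA replication genes, which are expressed earlier in the cycle, held CCAAT in 22 of 34 (64.7%) and TTTGAA in 7 of 34 (20.6%). A CCAAT box and a TTTGAA can share at most 1 letter. A match is a description of the sequence and not a proven binding site.

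**Figure D1:**
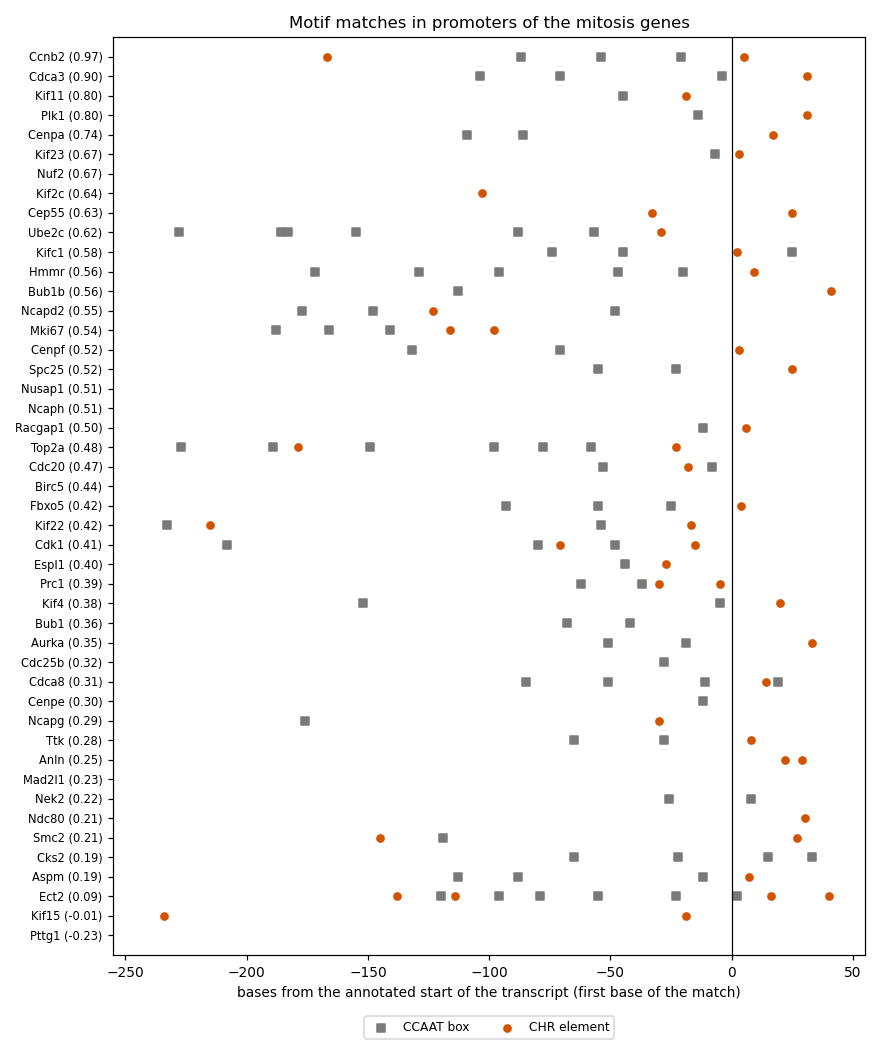
Positions of CCAAT boxes (grey squares) and CHR elements (orange circles) on either strand, in bases from the annotated start (horizontal axis), for the 46 measured mitosis genes with a promoter in the table, ordered from the highest to the lowest log2 difference (in brackets, CD73+ minus CD73-). CHR elements gather within 50 bases of the start and CCAAT boxes mostly before it, and 6 genes (Nuf2, Nusap1, Ncaph, Birc5, Mad2l1 and Pttg1), of which 5 were higher and 1 lower, hold neither.

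Of the 56 genes, 48 were significantly higher in CD73+ AD-MSCs, 2 were lower and 6 did not pass. Over all 18193 genes, 10.1% were called higher and 12.6% lower. Since 55 of the 56 lay above the median level of all probe sets, the same was counted over the 11128 genes above it, of which 15.5% were higher and 19.6% lower. The median difference of the mitosis genes was 0.42 (1.34-fold), against -0.018 over all genes. The 48 higher genes differed by 0.19 to 0.97 on the log2 scale, or 1.14-fold to 1.96-fold. For 10 of them the 95% interval lay wholly above 0.5, and for 13 wholly below it. The measured differences were thus not all of 1 size. The interval covers scatter among arrays and not how strongly each probe set responds. The 2 probe sets of Bub1 gave 0.36 (SE 0.062) and 0.77 (SE 0.095). Sizes that differ between genes, here and below, are therefore those of probe sets and need not be unlike folds of the RNA. On 49 genes every CD73+ array lay above every CD73- array (18.1% of all genes), and on 2 every CD73+ array lay below (22.7% of all genes).

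**Figure D2:**
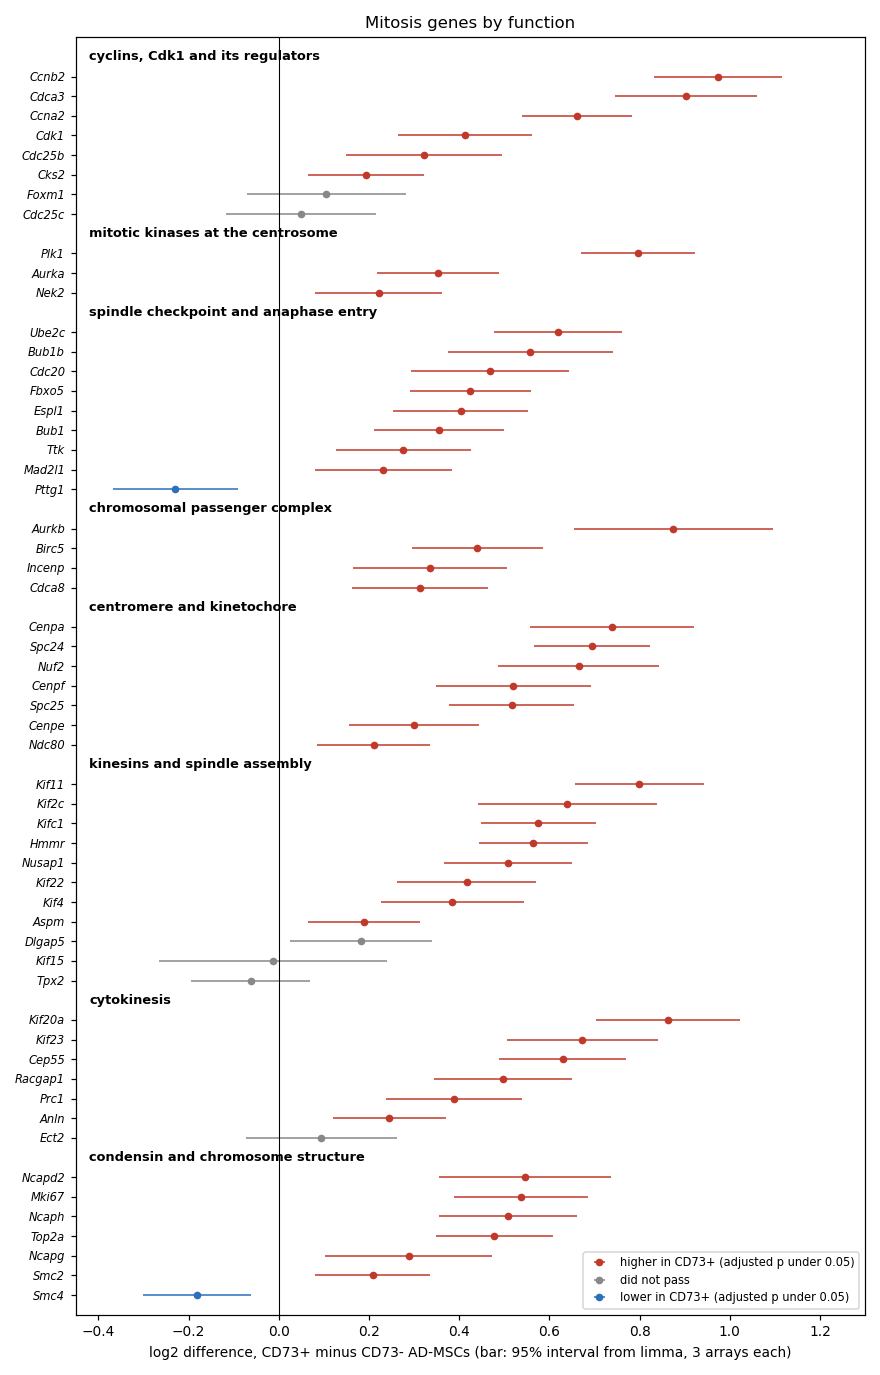
Log2 difference of each of the 56 mitosis genes, CD73+ minus CD73- AD-MSCs (horizontal axis), grouped by function, with points for the difference, bars for its 95% interval from limma (3 arrays each), and red for higher, blue for lower and grey for not past the threshold. All but Pttg1, Smc4, Tpx2 and Kif15 lie above 0 on the deposited scale, and every one does with the arrays scaled to the poly-A controls.

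Averaged over the 56 genes, the CD73+ arrays stood at 8.93, 8.94 and 8.93, and the CD73- arrays at 8.54, 8.54 and 8.47. The gap was far larger than the spread within either subgroup, while the mean over all genes was 6.52 to 6.54 on CD73+ arrays and 6.53 to 6.55 on CD73- arrays. Replicates were close for single genes too, with a median SD of 0.044 in CD73+ and 0.072 in CD73- AD-MSCs, and 38 of the 56 genes had the larger SD in CD73-. The SDs of the subgroups were not compared over all genes, so this is not shown to be particular to the mitosis genes. Arrays correlated at 0.997 to 0.998 within a subgroup and at 0.993 between subgroups. On the deposited scale the median probe set did not move (-0.000187). The poly-A controls, bacterial transcripts added to each sample, read 0.93 lower on the log2 scale in CD73+ AD-MSCs. Scaling the arrays to them would move the median of all probe sets to 0.93 and that of the mitosis genes to 1.35, which is 0.42 above it. All differences here are therefore relative to the bulk of transcripts, and 52 of the mitosis genes lay above it and 4 below. The scaling shifts every difference by the same amount, so these counts and the 0.42 are the same under either scale by construction. The part of the RNA input in these levels was not tested.

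**Figure D3:**
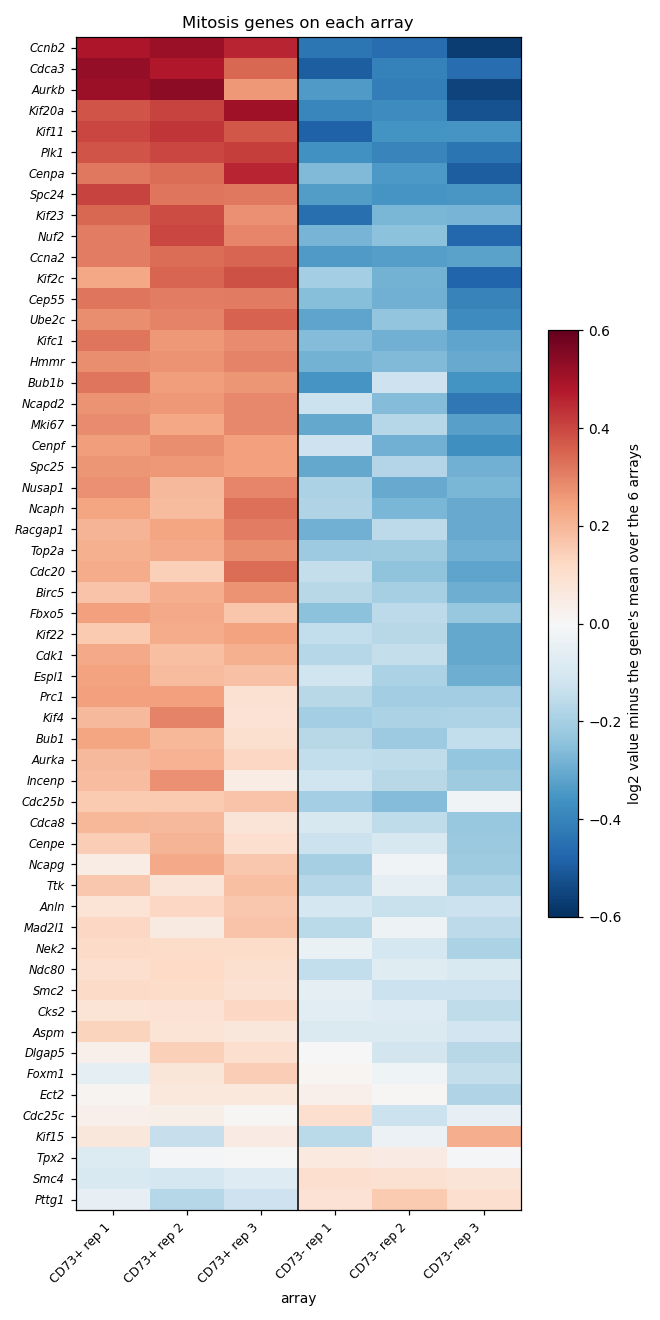
Log2 value of each mitosis gene on each array minus the mean of that gene over the 6 arrays (colour, red above and blue below), with arrays in columns (CD73+ replicates left of the line, CD73- replicates right of it) and genes in rows from the highest to the lowest difference. Rows from Ccnb2 to Dlgap5 are higher on every CD73+ array, and Smc4 and Pttg1 at the bottom are lower on every one on the deposited scale.

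Among the cyclins and the regulators of Cdk1, 6 of 8 genes were higher and 2 did not pass, with a median difference of 0.37. Ccnb2, which encodes the mitotic cyclin B2, measured 9.21, 9.23 and 9.18 in CD73+ AD-MSCs, against 8.29, 8.26 and 8.15 in CD73- AD-MSCs. That was the largest difference of the whole set (0.97, SE 0.061, 1.96-fold, limma adjusted p = 0.000166). Cdca3, which promotes mitotic entry by helping to destroy the Cdk1 inhibitor kinase Wee1, measured 9.26, 9.21 and 9.08 in CD73+ and 8.24, 8.33 and 8.27 in CD73- AD-MSCs. Its difference was 0.90 (SE 0.067, limma adjusted p = 0.000279). Ccna2, the cyclin of S phase and G2, was higher by 0.66. Cdk1 itself, the kinase that these cyclins activate, measured 10.84, 10.80 and 10.83 in CD73+ and 10.45, 10.47 and 10.31 in CD73- AD-MSCs. The subgroups did not overlap, yet the difference of Cdk1 (0.41, 95% interval 0.26 to 0.56) was well below that of Ccnb2 (0.83 to 1.12), and the intervals were apart. Cdc25b, a phosphatase that switches Cdk1 on, was higher by 0.32, and Cks2, a small Cdk-binding protein, by 0.19. The call of Cks2 was lost without any 1 of the 6 arrays (limma adjusted p 0.0818 to 0.127), and that of Cdc25b in all but the fit without CD73- replicate 3 (0.0538 to 0.0755).

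Foxm1 and Cdc25c did not pass. Foxm1, the transcription factor that acts at mitotic promoters, measured 7.14, 7.27 and 7.34 in CD73+ and 7.21, 7.17 and 7.05 in CD73- AD-MSCs. These values overlapped, and the difference of 0.11 had a 95% interval of -0.071 to 0.28. The other probe sets of Foxm1 gave -0.083, -0.047 and -0.071 and did not pass. Cdc25c, a further phosphatase of Cdk1, measured 6.50, 6.50 and 6.48 in CD73+ and 6.57, 6.34 and 6.42 in CD73- AD-MSCs. The difference of 0.049 had an interval of -0.12 to 0.22, which lay below the difference of Cdk1 (0.41) on the deposited scale. Cdc25c was read from a probe set with _x_at in its name, which can also read related transcripts. The interval therefore speaks for that probe set and not for the Cdc25c transcript alone.

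All 3 kinases of the centrosome were higher. Plk1, which drives centrosome maturation and mitotic entry, measured 8.90, 8.93 and 8.94 in CD73+ and 8.17, 8.13 and 8.09 in CD73- AD-MSCs. Its difference was 0.80 (SE 0.054, 1.74-fold, limma adjusted p = 0.000211). Aurka, the Aurora A kinase of the spindle poles, measured 9.47, 9.49 and 9.40 in CD73+ and 9.13, 9.13 and 9.05 in CD73- AD-MSCs. Neither gene overlapped between subgroups, but the interval of Plk1 (0.67 to 0.92) lay above that of Aurka (0.22 to 0.49). Nek2, which splits the centrosomes, was higher by 0.22, a call kept only in the fit without CD73- replicate 1 among the 6 that left out 1 array (limma adjusted p 0.0818 to 0.122 in the others).

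Of the 9 genes of the spindle checkpoint and of anaphase entry, 8 were higher and 1, Pttg1, was lower, with a median of 0.40. Ube2c, the ubiquitin-conjugating enzyme of the anaphase-promoting complex, measured 10.89, 10.90 and 10.96 in CD73+ and 10.29, 10.37 and 10.23 in CD73- AD-MSCs (0.62, SE 0.061, limma adjusted p = 0.000721). Bub1b, which encodes the checkpoint protein BubR1, measured 8.01, 7.94 and 7.96 in CD73+ and 7.34, 7.57 and 7.33 in CD73- AD-MSCs (0.56, SE 0.078, limma adjusted p = 0.0028). Both sides of this switch were thus higher together. Cdc20, the activator of the complex, was higher by 0.47, and Fbxo5, its inhibitor Emi1, by 0.42. Espl1, the protease separase that opens cohesin, was higher by 0.40. The checkpoint kinases Bub1 and Ttk were higher by 0.36 and 0.28, and Mad2l1, the checkpoint protein that binds Cdc20, by 0.23. The call of Mad2l1 was lost without any 1 array (limma adjusted p 0.0521 to 0.135), and that of Ttk without CD73+ replicate 1 or 3 or CD73- replicate 1 or 3 (0.0562 to 0.0852).

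Pttg1, on chromosome 11, encodes securin, which holds separase inactive until anaphase. It measured 10.37, 10.25 and 10.30 in CD73+ and 10.51, 10.58 and 10.52 in CD73- AD-MSCs. Every CD73+ array was below every CD73- array, and the difference was -0.23 (SE 0.059, limma adjusted p = 0.0333) on the deposited scale, against 0.70 with the arrays scaled to the poly-A controls. The call was lost without any 1 array (limma adjusted p 0.0581 to 0.123), and the other 2 probe sets of Pttg1 gave -0.12 and -0.044 and did not pass. The promoter window of Pttg1 held neither TTTGAA nor CCAAT, as did those of Birc5, Mad2l1, Ncaph, Nuf2 and Nusap1, which were all higher.

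The chromosomal passenger complex corrects wrong attachments at the centromere and later acts at the midzone. Its 4 subunits were all higher, with a median of 0.39. Aurkb, its kinase Aurora B, measured 8.22, 8.25 and 7.97 in CD73+ and 7.37, 7.29 and 7.15 in CD73- AD-MSCs (0.87, SE 0.094, 1.83-fold, limma adjusted p = 0.00102). Birc5, which encodes survivin, measured 9.72, 9.77 and 9.82 in CD73+ and 9.38, 9.35 and 9.25 in CD73- AD-MSCs (0.44, SE 0.062, limma adjusted p = 0.00289). Both genes were apart between subgroups, and a second, dimmer probe set of Aurkb was higher by 0.56 (limma adjusted p = 0.0231). Incenp, the scaffold, and Cdca8, borealin, were higher by 0.34 and 0.31. The call of Incenp was lost without CD73+ replicate 1 or 2 or CD73- replicate 2 (limma adjusted p 0.0604 to 0.0665), and that of Cdca8 without CD73+ replicate 1 or 2 (0.0573 to 0.0618).

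Genes of the centromere and kinetochore had the highest median of the 8 groups (0.52), and all 7 were higher. Cenpa, the histone H3 variant that marks the centromere, measured 9.73, 9.75 and 9.87 in CD73+ and 9.14, 9.06 and 8.92 in CD73- AD-MSCs (0.74, SE 0.078, limma adjusted p = 0.000939). Spc24 measured 7.84, 7.76 and 7.75 in CD73+ and 7.10, 7.08 and 7.09 in CD73- AD-MSCs (0.69, SE 0.055, limma adjusted p = 0.000347). Spc24 is a subunit of the Ndc80 complex, which grips the microtubule, and the probe sets of its subunits did not all give 1 difference. The other subunits of the complex, Nuf2, Spc25 and Ndc80, were higher by 0.67, 0.52 and 0.21. The interval of Ndc80 (0.085 to 0.34) lay below those of Spc24 (0.57 to 0.82) and Nuf2 (0.49 to 0.84). These 3 genes have 1 probe set each, and probe sets of the same gene can differ as well (Bub1, 0.36 and 0.77). Unlike changes of the RNA of the subunits are therefore not shown. Cenpf and Cenpe, which link kinetochores to microtubules and motors, were higher by 0.52 and 0.30. The call of Ndc80 was lost without any 1 array (limma adjusted p 0.0546 to 0.111), and that of Cenpe without CD73+ replicate 1 or 2 (0.0543 to 0.0596).

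Kinesins and spindle assembly proteins were mixed, with 8 of 11 higher, 3 not past the threshold and a median of 0.42. Kif11, the kinesin Eg5 that pushes the spindle poles apart, measured 7.94, 7.97 and 7.91 in CD73+ and 7.05, 7.18 and 7.19 in CD73- AD-MSCs (0.80, SE 0.061, 1.74-fold, limma adjusted p = 0.000305). Kif2c, a kinesin that shortens microtubules at the centromere, measured 8.42, 8.54 and 8.57 in CD73+ and 7.99, 7.91 and 7.71 in CD73- AD-MSCs (0.64, SE 0.085, limma adjusted p = 0.0023). Both were apart between subgroups. The minus-end motor Kifc1, the microtubule-binding Hmmr and Nusap1, and the chromosome-bound kinesins Kif22 and Kif4 were higher by 0.38 to 0.58. Aspm, a spindle pole protein, was higher by 0.19, and its call was lost without any 1 array (limma adjusted p 0.071 to 0.168). The other probe sets of Aspm gave -0.10, 0.048, 0.093 and 0.18 and did not pass.

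The 3 genes of this group that did not pass were Kif15, Tpx2 and Dlgap5. Kif15, a kinesin that can back up Kif11, measured 5.15, 4.94 and 5.13 in CD73+ and 4.92, 5.04 and 5.30 in CD73- AD-MSCs. This was the 1 gene below the median level of all probe sets, with an interval of -0.27 to 0.24 around -0.013. Tpx2, which activates Aurora A on the spindle, measured 9.66, 9.73 and 9.74 in CD73+ and 9.80, 9.79 and 9.73 in CD73- AD-MSCs. Its difference was -0.062 (95% interval -0.19 to 0.069) on the deposited scale and 0.86 with the arrays scaled to the poly-A controls, where Kif15 gave 0.91. A second probe set of Tpx2 passed with 0.30 (limma adjusted p = 0.0248), so the probe sets of this gene did not give 1 answer. Dlgap5, a microtubule-binding protein of the kinetochore fibres, measured 8.11, 8.23 and 8.18 in CD73+ and 8.09, 7.97 and 7.91 in CD73- AD-MSCs. Its arrays did not overlap, but the difference of 0.18 did not pass (limma adjusted p = 0.109). It passed on its dimmer probe set (0.42, limma adjusted p = 0.034) and in the fit limited to probe sets above the median level (limma adjusted p = 0.0378).

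Cytokinesis genes were higher in 6 of 7 cases, with a median of 0.50. Kif20a, a kinesin that carries the passenger complex to the midzone, measured 9.09, 9.12 and 9.22 in CD73+ and 8.32, 8.34 and 8.19 in CD73- AD-MSCs (0.86, SE 0.068, 1.82-fold, limma adjusted p = 0.000337). Kif23, the motor of centralspindlin, measured 8.94, 8.99 and 8.87 in CD73+ and 8.14, 8.32 and 8.32 in CD73- AD-MSCs (0.67, SE 0.071, limma adjusted p = 0.000948). The parts of the same machine followed, with Racgap1, the other subunit of centralspindlin, higher by 0.50 and Prc1, which bundles midzone microtubules, by 0.39. Cep55, which acts at abscission, was higher by 0.63. Anln, the anillin of the cleavage furrow, was higher by 0.25, a call lost without CD73+ replicate 1 or 2 or CD73- replicate 2 (limma adjusted p 0.05 to 0.0675). Ect2, the exchange factor that centralspindlin recruits to switch on RhoA, was the 1 gene of the group that did not pass. It measured 9.23, 9.28 and 9.28 in CD73+ and 9.25, 9.22 and 9.04 in CD73- AD-MSCs, with a difference of 0.095 (95% interval -0.073 to 0.26).

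In the group of condensin and chromosome structure, 6 of 7 genes were higher and 1, Smc4, was lower, with a median of 0.48. Ncapd2, a regulatory subunit of condensin I, measured 8.14, 8.13 and 8.16 in CD73+ and 7.74, 7.61 and 7.44 in CD73- AD-MSCs (0.55, SE 0.082, limma adjusted p = 0.00376). Mki67, the Ki-67 protein that coats mitotic chromosomes and is the usual marker of proliferation, measured 10.01, 9.96 and 10.01 in CD73+ and 9.41, 9.55 and 9.40 in CD73- AD-MSCs (0.54, SE 0.063, 1.45-fold, limma adjusted p = 0.00141). Top2a, the topoisomerase that untangles sister chromatids, measured 10.14, 10.16 and 10.21 in CD73+ and 9.71, 9.72 and 9.64 in CD73- AD-MSCs (0.48, SE 0.056, limma adjusted p = 0.00137). The 3 genes were apart between subgroups and differed by like amounts. Ncaph and Ncapg, the other regulatory subunits of condensin I, were higher by 0.51 and 0.29. The call of Ncapg was kept only without CD73- replicate 2 among the fits that left out 1 array (limma adjusted p 0.053 to 0.139 in the others).

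Smc2 and Smc4 form the ring shared by both condensins, and their brightest probe sets moved in opposite ways on the deposited scale. Smc2 was higher by 0.21 (limma adjusted p = 0.0348) on that probe set. Its other probe sets gave 0.23, 0.082 and 0.18, which did not pass, and -0.25 on a dim one, which passed as lower (limma adjusted p = 0.0246). Smc4, on chromosome 3, measured 10.82, 10.81 and 10.83 in CD73+ and 11.01, 11.00 and 10.99 in CD73- AD-MSCs. Every CD73+ array was lower, and the difference was -0.18 (SE 0.051, limma adjusted p = 0.0469) on the deposited scale, against 0.74 with scaling to the poly-A controls. The other probe sets of Smc4 gave -0.25 (limma adjusted p = 0.0694) and -0.25 (limma adjusted p = 0.0283), so all 3 leaned the same way. Both calls were lost without any 1 array, with limma adjusted p 0.0704 to 0.146 for Smc4 and 0.0513 to 0.119 for Smc2.

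Calls were thus uneven in strength. In the 6 fits that left out 1 array each, 35 of the 50 called genes passed every time, and these were all higher, by at least 0.35. The other 15 differed by at most 0.34.

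The array reads the mitosis genes with 127 probe sets, of which 82 were higher, 4 were lower and 41 did not pass, against 9.79% higher and 9.11% lower over all probe sets. For 38 genes there were several. Among the called genes of this kind, 14 passed the same way on every probe set, among them Kif11, Ccna2, Aurkb, Cdc20 and Prc1, and 19 had a further probe set that missed the threshold. Brightness went with this. Of the 48 other probe sets above the median level of the array, 31 were higher and 1 was lower, while of the 23 at or below it 3 were higher and 1 was lower. Smc2 was the 1 gene that passed the opposite way on another probe set (-0.25), and that one was dim. Cdca3 likewise gave 0.034 and 0.04 on 2 dim probe sets. A probe set that carries _s_at or _x_at in its name can also read related transcripts, and 13 of the genes, Pttg1 among them, were read from such a probe set.

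**Figure D4:**
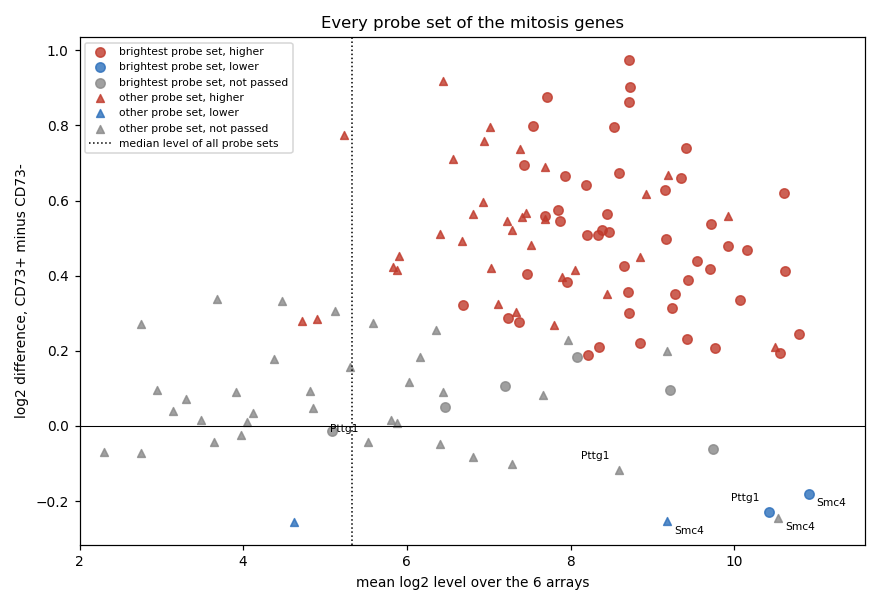
Log2 difference (vertical axis, CD73+ minus CD73-) against the mean log2 level over the 6 arrays (horizontal axis) for all 127 probe sets of the mitosis genes, with circles for the brightest probe set of each gene, triangles for the others, and colours for the call. Left of the dotted line, the median level of all probe sets, few pass, and the 3 probe sets of Smc4 and the brightest of Pttg1 lie lowest on the right on the deposited scale.

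Other genes of cell division were read from the same fit. Of 116 further mitosis genes in 6 lists, 31 were higher (26.7%) and 7 lower (6.03%), with a median of 0.10, beside 10.1% and 12.6% over all genes. Kinesins and spindle proteins outside the set were higher in 8 of 24, led by Knstrn, the kinetochore-localised astrin partner (0.82, limma adjusted p = 0.000856), Ckap2 (0.51) and Fam83d (0.35), and the other 16 did not pass. Cytokinesis proteins were higher in 6 of 10, led by Arhgap11a (0.44), Depdc1b (0.43) and Depdc1a (0.41), and 1 was lower, Pdcd6ip (-0.32), which encodes the abscission factor Alix. Regulators of mitotic entry and exit were higher in 7 of 17, led by Ccnf, or cyclin F (0.63), Melk (0.50) and Pbk (0.46), and lower in 1, the phosphatase subunit Ppp2r2a (-0.33).

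Centromere genes outside the set were called higher at about the share of all genes (10.1%), and that share was 15.5% among genes above the median level. Every CD73+ array lay above every CD73- array on 12 of these 35 genes (34.3%), against 18.1% of all genes. Every CD73+ array lay below on 5, against 22.7% of all genes. Of 35 other centromere and kinetochore genes, 3 (8.57%) were higher, namely Cenpm (0.54), Ska1 (0.51) and Cenpb (0.44), and 1 was lower, Cenpq (-0.49, limma adjusted p = 0.00206), with a median of 0.06. The anaphase-promoting complex, with its activator Fzr1 and its enzyme Ube2s, made a list of 14 genes with a median of 0.0072. Of these, 4 were higher (28.6%), led by Anapc13 (0.36), Anapc5 (0.36) and Cdc26 (0.26), and 1 was lower (7.14%), Anapc1 (-0.22). Ube2s did not pass (0.11, limma adjusted p = 0.214). The enzyme Ube2c and the regulators Cdc20 and Fbxo5, which are in the main set, stood well above that median. Cohesin, its loaders and condensin II gave 3 higher, Cdca5 (0.57), Esco2 (0.56) and Stag1 (0.30), and 3 lower of 16 (18.8% each). Of these last, Wapl, which releases cohesin from chromosomes, had the largest fall (-0.63, limma adjusted p = 0.00113), ahead of Esco1 and Mau2 (-0.20 each). The share called lower was 12.6% over all genes and 19.6% among genes above the median level.

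The regulators that read the CHR element and the E2F site were called no more often than genes of the whole array, of which 10.1% were higher and 12.6% lower. Of 19 genes of DREAM, MuvB and E2F, 1 (5.26%) was higher, E2f8, a late-cycle repressor (0.55, limma adjusted p = 0.00245), and 2 (10.5%) were lower, Tfdp2 (-0.30) and Rb1 (-0.26), with a median of 0.08. DNA replication genes were higher in 11 of 42, with 31 not past the threshold and a median of 0.099. They were led by Tk1, thymidine kinase (0.66, limma adjusted p = 0.000398), Cdc7, which fires origins (0.57), and Gmnn, geminin (0.53). All these directions are relative to the deposited scale, and with scaling to the poly-A controls 44707 of 45037 probe sets were higher.

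**Figure D5:**
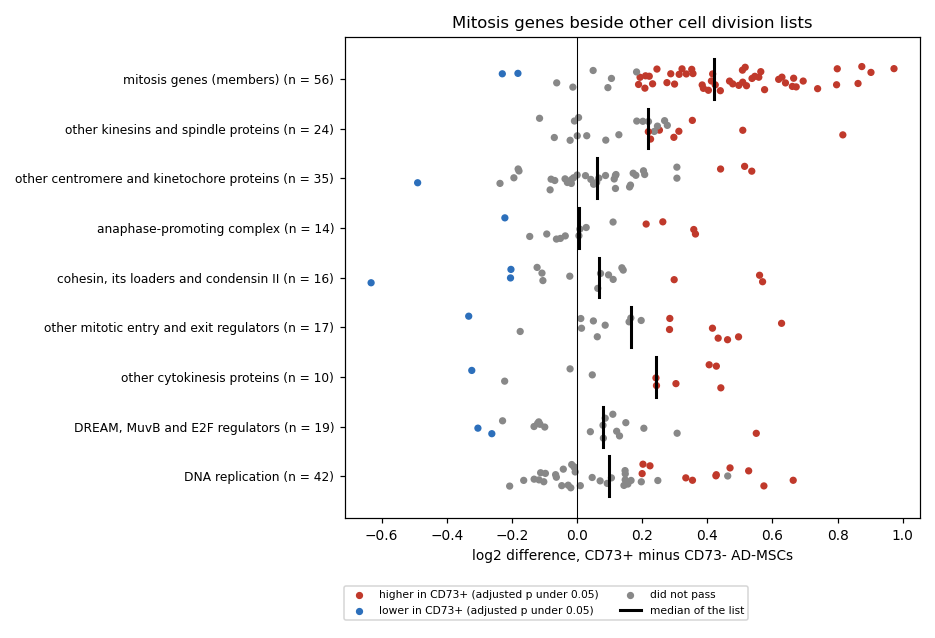
Log2 difference of each gene (points, CD73+ minus CD73-, horizontal axis) in the 56 mitosis genes and in 8 other lists of cell division genes, with black bars for the median of each list and colours for the call. The mitosis genes have a median of 0.42 on the deposited scale, and the other lists lie between 0.0072 and 0.24.

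The motifs were set beside the differences as a description. Genes with TTTGAA in the window (35) had a median difference of 0.48, with 33 higher, and those without it (11) had 0.32, with 10 higher. For CCAAT the medians were 0.42 (35 genes, 34 higher) and 0.44 (11 genes, 9 higher). In promoters with 2 or more CCAAT boxes, a pair of neighbours lay 30 to 35 bases apart in 11 of 25 mitosis genes (44.0%), 2 of 15 DNA replication genes (13.3%) and 351 of 2152 array genes (16.3%). This spacing can be seen between the boxes of Ccnb2 and Cdca3 above, and the band was chosen after the positions were seen.

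The cells carried markers of stromal cells, whose summed log2 level over 10 genes was 103.7 to 104.0 on CD73+ and 99.1 to 99.6 on CD73- arrays. Single stromal genes lay between 6.37 and 13.6 in CD73+ and between 6.29 and 13.4 in CD73- AD-MSCs. Of these, 6 were higher in CD73+ AD-MSCs (Nt5e by 0.88, Col1a1 by 0.85, Thy1, Pdgfra, Col1a2 and Pdgfrb) and 4 did not pass. Markers of other cells that inguinal fat could hold lay between 2.76 and 6.87 in CD73+ and between 2.76 and 6.38 in CD73- AD-MSCs, and 8 of the 26 measured were above the median level of all probe sets (5.33), Csf1r, Cd3e and Kdr among them. Over 8 haematopoietic genes the sum was 39.4 to 39.8 on CD73+ and 38.2 to 38.8 on CD73- arrays, and 1, Csf1r, was higher (0.49). Of the 8, 6 had a positive difference. On 3 every CD73+ array lay above every CD73- array (18.1% of all genes), and on 0 every one lay below. In limma 2 rose and 0 fell with an unadjusted p under 0.05. Ptprc was the lowest of the 8, at 3.06 on CD73+ and 3.19 on CD73- arrays (means), and the highest level was 6.87 and 6.38. Endothelial genes (7) summed to 30.1 to 30.4 on CD73+ and 29.5 to 30.5 on CD73- arrays. Adipocyte genes (5) summed to 20.8 to 21.0 on CD73+ and 21.0 to 21.6 on CD73- arrays. Adipoq was the lowest of the 5, at 3.18 on CD73+ and 3.17 on CD73- arrays (means), and the highest level was 5.84 and 6.08. Their differences ran from -0.29 to 0.11, and on 1 every CD73+ array lay below every CD73- array (22.7% of all genes). Epithelial genes (6) summed to 28.0 to 28.6 on CD73+ and 27.9 to 28.8 on CD73- arrays. In limma 0 genes of these last 3 lists passed, and 1 adipocyte and 1 epithelial gene had an unadjusted p under 0.05. Ratios of 3′ to 5′ control probe sets, which rise with RNA decay, were 0.084 ± 0.014 in CD73+ and 0.19 ± 0.028 in CD73- AD-MSCs for Actb (log2, SD, n = 3 each). For Gapdh they were -0.27 ± 0.035 in CD73+ and -0.30 ± 0.023 in CD73- AD-MSCs. Any part of stromal markers, of Csf1r and of the Actb ratio in the mitosis genes was not tested.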

How the data were processed

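RNA of 3 CD73+ and 3 CD73- AD-MSC samples at the fifth passage after sorting was read on Affymetrix mouse arrays. The values are log2 values of 45101 probe sets as deposited, which the labels credit to RMA (version not given in the sources used here). RMA corrects background, brings the arrays to nearly equal distributions and summarises probes, so a change common to most transcripts does not appear. The statistics section of the study names one-way ANOVA with a post hoc test and does not speak of the arrays.

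After 64 control probe sets were set aside, limma 3.58.1 (R 4.3.3, lmFit and eBayes, no filter and no block) was run on 45037 probe sets, and p-values were adjusted by Benjamini-Hochberg across the whole table (threshold 0.05). The platform annotation gives 34945 probe sets 1 gene symbol, 932 several and 9160 none here. A gene was read from its brightest probe set with 1 symbol. Array number limits the precision (median within-subgroup SD 0.10 over all probe sets). The fit was tested on simulated data.

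Values of all arrays are given for the 2 genes with the largest absolute difference in each group, for genes that were lower or did not pass, and for Mki67, Cdk1 and Top2a (Ccnb1 fell under the same rule but could not be read). Up to 3 risers and 3 fallers of each other list are named. Genes and lists were chosen with earlier results of these data known. Alternatives were a replicate block, quantile normalization, cyclic loess, median centring, poly-A scaling (12 probe sets), a filter at the median level, 2 other priors, the methods' t-test (that ANOVA on the 2 subgroups), fits without 1 array, and 3 other ways to read a gene. Promoters came from RefSeq (GRCm38.p6). Proteins were not analysed here. Python 3.11.15 with matplotlib 3.10.9 drew the figures.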

Additional observations from a re-analysis of the deposited data

How the results depend on the processing

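Of 1005 pairs of a mitosis gene and an alternative setting, 863 kept direction and side of the threshold, 119 lost the call, 8 gained one and 15 changed sign. The 48 higher genes became 39 with a replicate block, 39 with median centring, 46 with a robust prior, 44 with the methods' t-test, 32 on the dimmest probe set and 56 with poly-A scaling, and 35 to 40 without 1 array. The 2 lower genes became 0 with the block or poly-A scaling, 1 with cyclic loess, median centring, the robust prior, the mean of the probe sets or no _s_at and _x_at probe sets, and 0 to 0 without 1 array. The median difference of 0.42 became 1.35 with poly-A scaling and 0.33 on the dimmest probe set. Of member probe sets, 127 were higher with poly-A scaling, against 82, and the 4 lower became 0 with the block or poly-A scaling and 0 to 2 without 1 array. Genes with all CD73+ arrays below became 0 with poly-A scaling, 1 without _s_at and _x_at probe sets and 2 to 3 without 1 array. Over all probe sets, 44707 were higher and 33 lower with poly-A scaling, 2713 were lower with the block, and without 1 array 2794 to 4199 were higher and 2525 to 3907 lower, against 4408 and 4105. A fit with fewer arrays has less power by construction. For the other settings the cause was not tested.

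Sign changed for Pttg1 (0.70), Kif15 (0.91), Tpx2 (0.86) and Smc4 (0.74) with poly-A scaling. On the dimmest probe set it changed for Foxm1 (-0.071), Ttk (-0.044), Incenp (-0.023), Racgap1 (-0.068), Smc2 (-0.25) and Tpx2 (0.017), and with the mean of the probe sets for Foxm1 (-0.024) and Tpx2 (0.067). Without 1 array it changed for Cdc25c (range -0.0019, without CD73- replicate 2, to 0.11) and Kif15 (range -0.097 to 0.093, positive without CD73+ replicate 2, at 0.052, and without CD73- replicate 3). Replicate numbers did not pair the arrays: same-number deviations correlated at -0.14, 0.028 and -0.14, and 2 of 6 arrays correlated best with their own number, so the block result stands only here.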
